A study of Rattus norvegicus with 10 samples.

Results

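The microRNAs (miRNAs) described here come from 4 genes of the rat Hox clusters: Mir10a, Mir10b, Mir196a and Mir196b. The set holds 7 mature miRNAs of the 761 on the rat miRNA chip: rno-miR-10a-5p, rno-miR-10a-3p, rno-miR-10b-5p, rno-miR-10b-3p, rno-miR-196a-5p, rno-miR-196b-5p and rno-miR-196b-3p. The members were chosen by name and by their place in Hox clusters, when results of these same arrays were already known, so their p-values are given as descriptions of the arrays and not as independent evidence. The study asked which miRNAs differ in rat hearts after dexmedetomidine (DEX), a selective alpha2 adrenergic receptor agonist used as a sedative. The RNA was ventricular, taken on the left side of the heart from male Wistar rats weighing 250 to 350 g, whose age is not given in the sources used here. The Control group (n = 5) was infused with saline, and the DEX group (n = 5) was infused through the tail vein for 30 min, with a loading dose first and a maintenance dose after it, and then with saline to wash the drug out. No allele, transgene or ischemia was part of either group. The study's methods take each RNA from the ventricular wall of 1 rat, and anesthesia is described for the ischemia experiments and not separately for these hearts.

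Hox genes encode transcription factors that set position along the body axis, and they stand in 4 clusters in which miRNA genes are embedded between or within the coding genes. An miRNA hairpin is cut into a 5p and a 3p arm, and one arm or both can be loaded into Argonaute, where bases 2 to 8 (the seed) pair with target messenger RNAs and reduce their translation or stability. The miR-10 and miR-196 families are best known for being transcribed with their Hox neighbours and for repressing Hox messenger RNAs, Hoxb8 being the classic target of miR-196. In the adult heart such miRNAs can come from any cell of the wall, including vessels and connective tissue, and a whole-tissue sample does not separate them.

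In the RefSeq gene table (assembly GRCr8) Mir10a stood between Hoxb5 and Hoxb4, and Mir10b stood inside the span of Hoxd4 with Hoxd3 as the next gene. Mir196a lay between Hoxc10 and Hoxc9, and Mir196b lay between Hoxa9 and Hoxa10, so that each of the 4 Hox clusters held 1 of the 4 genes. RefSeq held a mature sequence under the same name for 7 of the 7 members. They are shown because some members differ from each other by 1 base, which bears on how a probe's signal can be read. Each is written 5′ to 3′ with the seed in capitals.
rno-miR-10a-5p: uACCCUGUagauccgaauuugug
rno-miR-10b-5p: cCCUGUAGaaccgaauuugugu
rno-miR-10a-3p: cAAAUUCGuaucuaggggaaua
rno-miR-10b-3p: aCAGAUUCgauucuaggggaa
rno-miR-196a-5p: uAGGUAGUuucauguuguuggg
rno-miR-196b-5p: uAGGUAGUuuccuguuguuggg
rno-miR-196b-3p: uCGACAGCacgacacugccuuca

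On GRCr8, miR-10a-5p lies at chr10:81779730-81779752 and miR-10a-3p at chr10:81779771-81779792, both on the plus strand. miR-10b-5p lies at chr3:80035886-80035907 and miR-10b-3p at chr3:80035923-80035943, also on the plus strand. miR-196a-5p lies at chr7:135988900-135988921 on the plus strand. miR-196b-5p lies at chr4:82661149-82661170 and miR-196b-3p at chr4:82661113-82661135, both on the minus strand.

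The miR-10a-5p and miR-10b-5p sequences were nearly the same molecule with different ends. With positions counted from 1 at the 5′ end of miR-10a-5p, 20 of 21 aligned bases were identical and the one difference was U12A. RefSeq starts miR-10b-5p 2 bases later, so the 2 seeds differ as written above, and neither seed was carried by another of the 685 chip miRNAs with a RefSeq sequence. The miR-196 5p arms did share their seed. miR-196a-5p and miR-196b-5p differed by A12C only (21 of 22 bases identical, positions counted from the 5′ end of miR-196a-5p), and miR-196c-5p, from another gene in the HoxB cluster, differed from miR-196a-5p by A12G only. The same 7 letters also stood within the first 10 bases of 8 members of the let-7 family, shifted from the seed position. A probe for one of these near-identical miRNAs may capture the other, so miR-10a-5p and miR-10b-5p, and likewise the miR-196 5p arms, are reported as uncertain in how the signal divides between them.

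The arm of the Mir196b hairpin that was detected on every array was the 3p arm. The hairpin (GRCr8 chr4:82661101-82661185, minus strand) is shown with the 3p arm in capitals, at bases 51 to 73, and with the 5p arm at bases 16 to 37 in lower case.
Mir196b hairpin: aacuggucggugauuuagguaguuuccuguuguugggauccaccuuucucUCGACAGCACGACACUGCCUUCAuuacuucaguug

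Each chip was hybridized with Cy5-labelled RNA of 1 rat and read in 1 colour. A spot was called detected by the deposited value table when it exceeded the mean of the blank spots by 2 SD of the blanks. Between 483 and 533 of the 761 miRNAs were detected per array. Signals below are spot intensities minus the blank mean, scaled so that the median of each array's detected miRNAs was 25. An undetected spot was set to the lowest detected signal of its array, which lay between 3.64 and 5.09. The array DEX 1 stood apart as the dimmest: its detected miRNAs had a median of 17.3 intensity units over the blanks against 35.4 to 53.5 on the other arrays. Slide 1 carried Control 1 to 4, slide 2 carried Control 5 and DEX 1 to 3, and slide 3 carried DEX 4 and 5, so slide and group can be told apart only on slide 2. Every listed miRNA of heart muscle (6 of 6), such as miR-1-3p and miR-208a-3p, was detected on all arrays, as were those of endothelium (2 of 2), smooth muscle (2 of 2), fibroblasts (4 of 4), blood cells (7 of 7) and skeletal muscle (1 of 1). On the chip as a whole, 405 of the 761 miRNAs were detected on all arrays. None of these marker lists held an miRNA past the adjusted threshold. The summed signals overlapped between the groups, from 32200 to 46020 in Control and 31100 to 45000 in DEX for heart muscle, and from 1352 to 1829 and 1182 to 2031 for blood cells. They ran from 4360 to 5783 and 4370 to 6739 for endothelium, from 2433 to 3711 and 2654 to 3857 for smooth muscle, from 993.8 to 1771 and 1251 to 2405 for fibroblasts, and from 287.4 to 380.6 and 290.3 to 418.9 for skeletal muscle.

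Of the 7 Hox cluster miRNAs, 3 were detected in every heart and 4 were at or near the blanks. Over the whole chip, 405 of the 761 miRNAs were detected on all 10 arrays and 126 on none. miR-10a-5p, miR-10b-5p and miR-196b-3p were detected on 10 of 10 arrays. miR-10a-3p was detected on DEX 4 alone, miR-196a-5p on DEX 2 alone and miR-196b-5p on DEX 1 alone. miR-10b-3p was detected on 0 of 10 arrays. Testing required detection on 5 or more arrays, which left 3 of the 7 members.

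**Figure D1:**
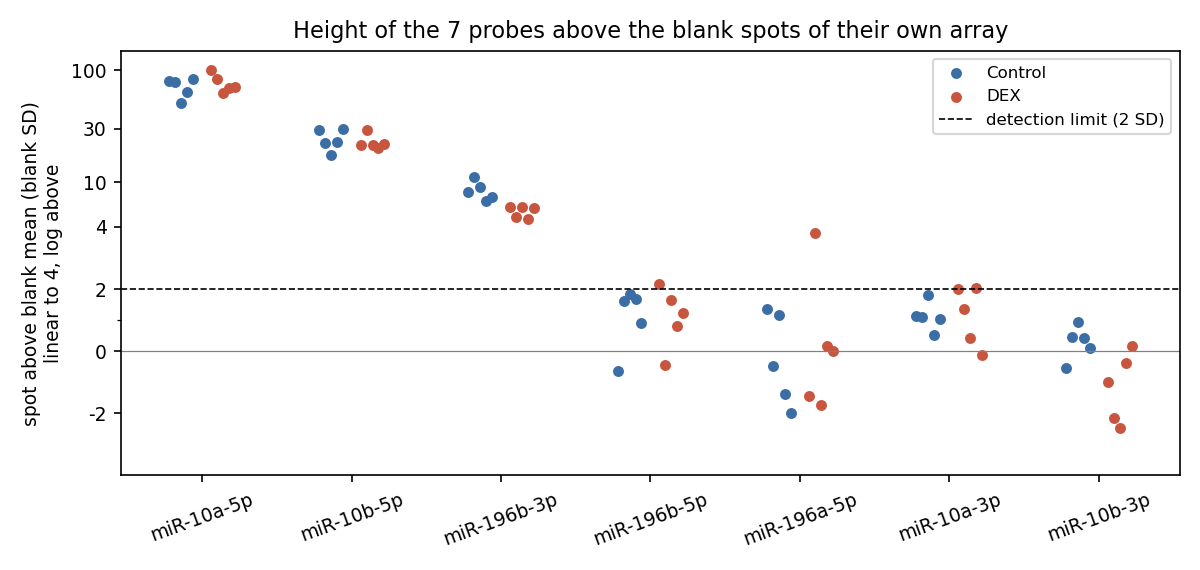
Height of each spot above the mean of the blank spots of its own array, in SD of those blanks (vertical axis, linear up to 4 and logarithmic above), for the 7 miRNAs on 5 Control and 5 DEX arrays (points). miR-10a-5p, miR-10b-5p and miR-196b-3p sat above the detection limit of 2 SD (dashed line) on 10 of 10 arrays, and the other 4 had at most 1 point above it.

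The calls for the undetected arms were close to the limit. The miR-10a-3p spot on DEX 4 stood 2.04 blank SD above the blank mean, and on DEX 1, where it was not called, it stood at 1.995. The miR-196b-5p spot on DEX 1 stood at 2.15 blank SD, with Control arrays between −0.65 and 1.83. The miR-196a-5p spot on DEX 2 was the clearest of these, at 3.82 blank SD and a signal of 7.11, while the Control arrays ran from −1.98 to 1.35. With the limit raised to 3 SD, miR-10a-3p and miR-196b-5p were detected on 0 arrays and miR-196a-5p on 1. miR-10b-3p ran from −2.49 to 0.93 blank SD over the 10 arrays. No fold change is given for these 4 miRNAs, since both groups were mostly below the detection limit, and their levels were not detectable at this brightness. A difference between groups of 1 array in 5 against 0 in 5 is a single spot.

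Among the 7 members, both arms of 1 hairpin were therefore detected together only for Mir10a on DEX 4 and for Mir196b on DEX 1. From Mir10a and Mir10b the 5p arm was the one detected in every heart, and from Mir196b it was the 3p arm. Probes capture their targets with unequal strength, so these detection counts do not rank the arms within a hairpin.

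miR-10a-5p, the arm of Mir10a that is usually loaded, showed no difference between the groups beyond the spread of the hearts. Its signals were 165, 179, 106, 116 and 180 on Control 1 to 5, and 251, 157, 119, 158 and 178 on DEX 1 to 5. DEX 1, the dimmest array, gave the highest value, and the remaining DEX arrays lay inside the Control range. The mean was 173 ± 48.6 in the DEX group and 149 ± 35.4 in the Control group (SD, n = 5 each). On the log2 scale DEX minus Control was 0.20 ± 0.22 (SE, 95% interval −0.27 to 0.68), with an adjusted p of 0.906 by limma over 503 tested miRNAs and a two-sided exact permutation p of 0.508. Without DEX 1 the difference was 0.056. On slide 2 alone, where the one Control array can be set beside 3 DEX arrays, it was −0.11. It was also below 0 with no scaling between arrays (−0.0041) and with the normexp background correction (−0.48), so its direction depends on the processing.

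miR-10b-5p, the corresponding arm from the HoxD cluster, had almost the same level in both groups. Its signals were 59.9, 50.9, 35.9, 41.6 and 64.5 on Control 1 to 5, and 53.7, 54.2, 40.8, 46.9 and 55.3 on DEX 1 to 5. All 5 DEX values lay within the Control range. The mean was 50.2 ± 6.18 in the DEX group and 50.6 ± 12.01 in the Control group (SD, n = 5 each). The log2 difference was 0.013 ± 0.18 (SE, 95% interval −0.38 to 0.40), with an adjusted p of 0.985 by limma and an exact permutation p of 0.937. Its sign turned under several settings, among them the 75th percentile scaling (−0.083) and the comparison within slide 2 (−0.39). The interval still allows a change of 0.38 downward or 0.40 upward on the log2 scale.

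miR-196b-3p, the partner arm of miR-196b-5p, had the largest difference of the 3 tested members and was lower in the DEX group. Its signals were 16.9, 25.4, 18.6, 12.3 and 15.8 on Control 1 to 5, and 14.8, 9.10, 11.3, 10.8 and 14.9 on DEX 1 to 5. DEX 2, 3 and 4 lay below every Control array, whereas DEX 1 and 5 lay above Control 4, so the groups overlapped. The mean was 12.2 ± 2.59 in the DEX group and 17.8 ± 4.85 in the Control group (SD, n = 5 each). The log2 difference was −0.53 ± 0.21 (SE, 95% interval −0.98 to −0.08), which gave an unadjusted p of 0.0241 and an adjusted p of 0.906 by limma, and a two-sided exact permutation p of 0.0397 where 0.00794 is the smallest that 5 against 5 can give. Its unadjusted p ranked 11 among the 503. It did not pass the adjusted threshold of 0.05. Fewer cells of a type that carries this miRNA and less of it per cell cannot be told apart in a whole-tissue sample. Among the 7 listed blood cell miRNAs, the red cell miRNAs miR-144-3p and miR-451-5p had log2 differences below 0 as well, at −0.75 and −0.59, while the other 5 were between 0.02 and 0.34, among them miR-142-3p at 0.29, miR-150-5p at 0.21 and miR-223-3p at 0.34. None of the 7 passed the adjusted threshold in limma or an unadjusted p under 0.05, with p 0.0575 for miR-144-3p and 0.097 for miR-451-5p, and their part in the result for miR-196b-3p was not tested.

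**Figure D2:**
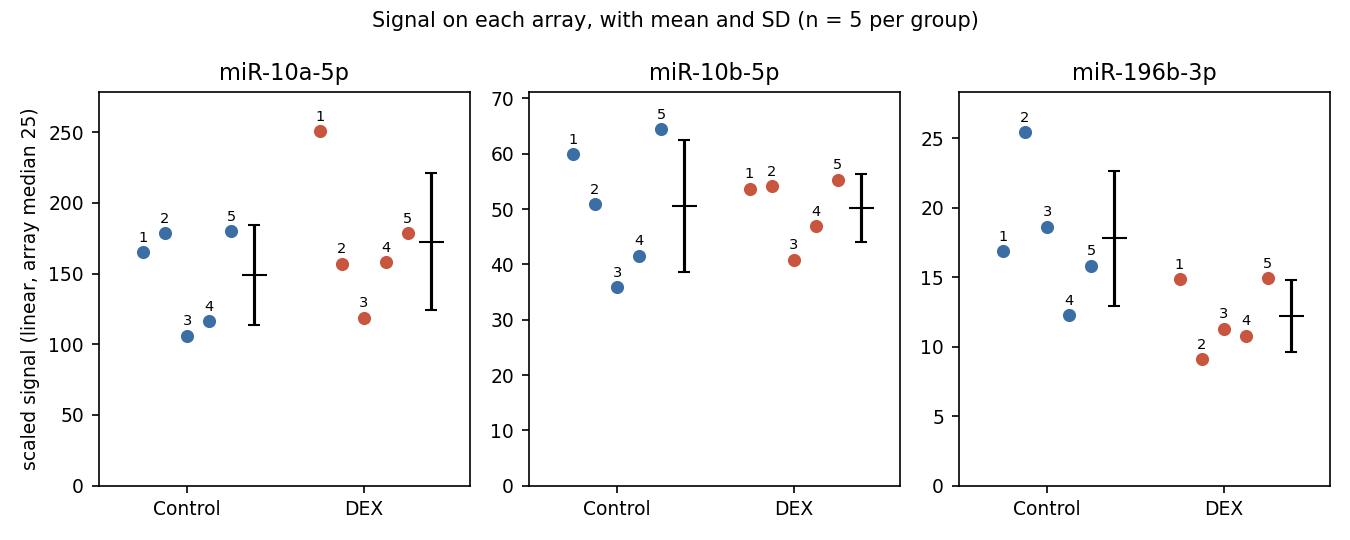
Scaled signal (vertical axis, linear, median of detected miRNAs 25 on each array) of miR-10a-5p, miR-10b-5p and miR-196b-3p on each of 5 Control and 5 DEX arrays, numbered by replicate, with the mean and SD of each group in black. The miR-10b-5p groups share their range, DEX 1 stands highest for miR-10a-5p at 251, and for miR-196b-3p DEX 2, 3 and 4 lie below all Control arrays.

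For miR-196b-3p the deposited scores, which the authors rounded to whole numbers, were 11, 16, 13, 9 and 9 on Control 1 to 5 and 9, 6, 8, 8 and 9 on DEX 1 to 5. No DEX score exceeded a Control score, and the groups met at 9. The order differed from that of the scaled signal, where DEX 1 and 5 lay above Control 4. At such low scores 1 unit of rounding is a visible part of the value. For miR-10a-5p the scores ran from 74 to 111 in Control and from 88 to 151 in DEX, and for miR-10b-5p from 25 to 38 and from 30 to 36.

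The spot of miR-196b-3p was dim on every array. Before scaling it stood 6.77 to 11.3 blank SD above the blank mean on the Control arrays and 4.71 to 5.99 on the DEX arrays. In this unit the groups did not overlap, which held downward for 5 of 503 tested miRNAs (0.994%). The unit divides by the blank SD of each array, which differs between arrays. DEX 1 and 5 lay above Control 4 in scaled signal and below it in this unit, so their order depends on the unit and scaling. miR-10a-5p stood 51.5 to 84.4 blank SD above the blanks in Control and 62.7 to 101 in DEX, and miR-10b-5p 17.4 to 30.2 and 20.5 to 29.1. The difference of miR-196b-3p shrank to −0.07 when no background was taken off and to −0.09 with normexp. In those 2 settings its unadjusted p was 0.136 and 0.325. It lay at −0.46 within slide 2. A limma fit with slide as a fixed term takes its difference from slide 2 alone, so it gave the same value, with an unadjusted p of 0.277. With slide as a random block the limma difference was −0.54 and the unadjusted p 0.0152. The estimated slide correlation in that fit was −0.061, below 0, so this p cannot be read as corrected for slide. For miR-196b-3p the unadjusted p was 0.0685 without Control 2, the highest Control value, where the difference was −0.39. Without DEX 2 the difference was −0.43 and the p 0.0655, and without DEX 4 they were −0.49 and 0.0515. Without the dim array DEX 1 the difference was −0.61.

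**Figure D3:**
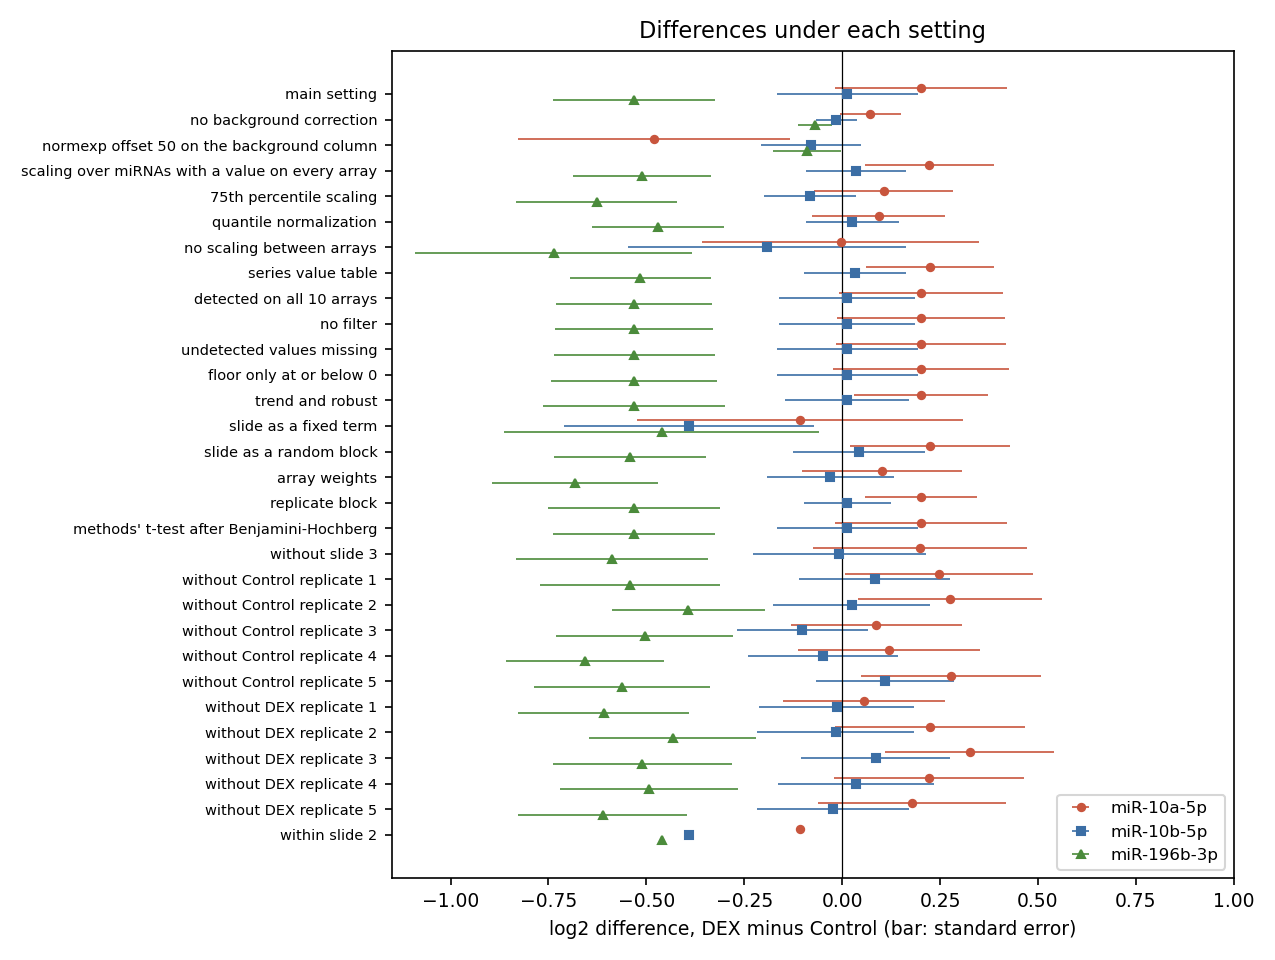
Log2 difference, DEX minus Control (horizontal axis), of miR-10a-5p (circles), miR-10b-5p (squares) and miR-196b-3p (triangles) under the main setting and 29 alternatives, with the standard error as a bar. The values within slide 2 come from 1 Control array and have no error. miR-196b-3p stays left of 0 in 29 of 29 alternatives, from −0.74 to −0.07, while miR-10a-5p and miR-10b-5p fall on both sides. The filter and floor settings and some model settings could not change these differences.

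Read against the whole chip, the members did not stand out by their counts. The limma fit called 0 of the 3 tested members at an adjusted p under 0.05, and it called 0% of the 503 tested miRNAs, whose lowest adjusted p was 0.115. At an unadjusted p under 0.05 it gave 15 miRNAs, 7 higher and 8 lower in DEX. miR-196b-3p was among those 8, which make up 1.59% of the tested miRNAs. The methods' t-test threshold, p under 0.05 with at least a 1.5-fold change, was met by 8 miRNAs (1.59%) and by 0 of the 3 members, and 0 of the 503 passed it after Benjamini-Hochberg adjustment. miR-196b-3p had a p of 0.0422 in that test and a change short of 1.5-fold. Here that test was run on the log2 scaled signals described above and not on the authors' rounded scores. The study's own list at this threshold was shorter than these 8 and was not reproduced in full. It held miR-301b-3p, which had a p of 0.0813 in that test here and so did not meet the threshold. The groups did not overlap in scaled signal for 3 of the 503 (0.596%) and for 0 members. Of the 3 tested members 2 were higher and 1 was lower by sign, with a median log2 difference of 0.01, while over all tested miRNAs 298 were higher and 205 lower with a median of 0.04.

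**Figure D4:**
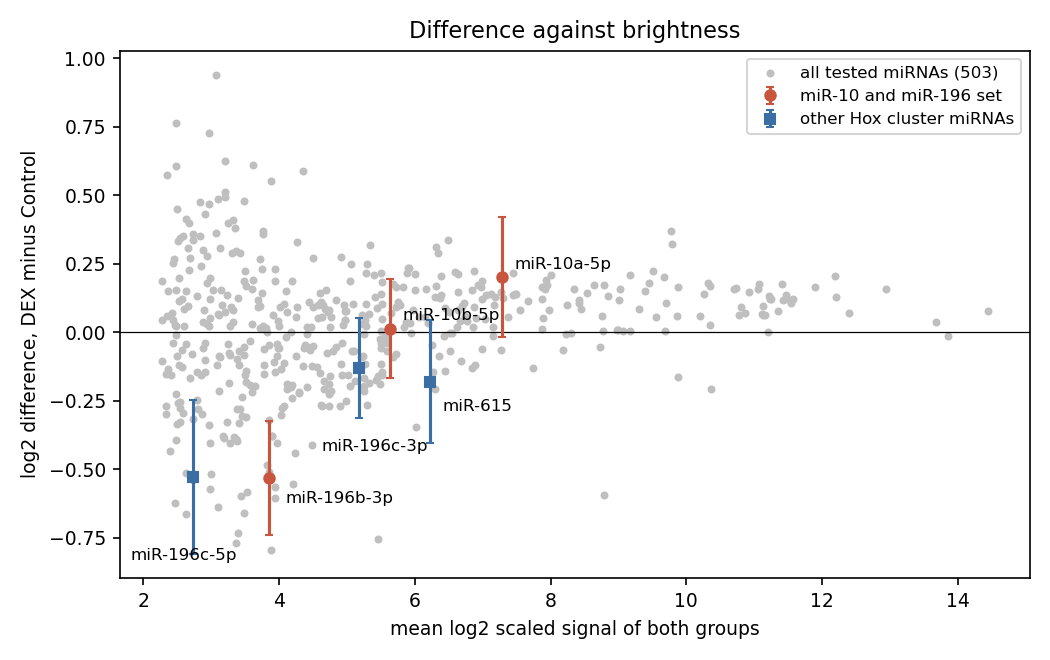
Log2 difference, DEX minus Control (vertical axis), against the mean log2 scaled signal of both groups (horizontal axis) for the 503 tested miRNAs (grey), with the 3 tested members (circles) and the 3 other tested Hox cluster miRNAs (squares) shown with their standard errors. miR-196b-3p, at −0.53, lies among dim miRNAs whose differences scatter widely, and miR-10a-5p and miR-10b-5p lie within the scatter of brighter ones.

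The chip also carried 4 further miRNAs of Hox clusters: miR-196c-5p, miR-196c-3p, miR-196a-3p and miR-615. Mir196c stood between Hoxb13 and Hoxb9 in the RefSeq table, and Mir615 inside the spans of Hoxc5 and Hoxc6. Of the 4, 3 were tested, 0 passed the adjusted threshold, and the 3 differences were all below 0 by sign, with a median of −0.18. Within slide 2, with its 1 Control array, miR-196c-3p turned to 0.26, while miR-196c-5p was at −1.59 and miR-615 at −0.36. miR-196c-5p, which has the seed of miR-196a-5p and miR-196b-5p, was detected on 5 Control and 4 DEX arrays. With the limit raised to 3 SD it was detected on 4 Control and 2 DEX arrays. Its signals were 8.23, 7.86, 4.27, 7.34 and 15.7 on Control 1 to 5, and 6.43, 4.404, 7.06 and 5.14 on DEX 2 to 5, with DEX 1 undetected. In the fit DEX 1 was set to that array's lowest detected signal, 4.98, which is above the detected signal of DEX 3. Control 5 was the highest and the rest of the groups overlapped. Its log2 difference was −0.53 ± 0.28 (SE), with an adjusted p of 0.906 by limma. miR-196c-3p averaged 38.1 ± 5.68 in the Control group and 35.3 ± 7.92 after DEX (SD, n = 5 each), and its difference of −0.13 ± 0.18 had an adjusted p of 0.914 by limma. miR-615, from the HoxC cluster, averaged 81.1 ± 16.4 and 73.6 ± 26.2 (SD, n = 5 each), and its difference of −0.18 ± 0.22 had an adjusted p of 0.906 by limma. miR-196a-3p was detected on 0 of 10 arrays.

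The relatives of miR-10 outside the Hox clusters, miR-99, miR-100 and miR-125, were measured on 11 probes. Of these 10 were tested, 8 were higher and 2 lower by sign, and 0 passed the threshold before or after adjustment, with a median log2 difference of 0.06. miR-100-5p matched miR-10a-5p at 19 of 22 aligned bases and had a difference of 0.15 ± 0.17 (SE), with an adjusted p of 0.906 by limma. Its lowest, median and highest signals were 486, 694 and 783 in Control and 596, 712 and 875 in DEX.

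The level of miR-10a-5p relative to miR-10b-5p on the same array does not depend on the scaling between arrays. The log2 ratio was 1.46, 1.81, 1.56, 1.48 and 1.48 on Control 1 to 5, and 2.22, 1.54, 1.54, 1.75 and 1.69 on DEX 1 to 5. DEX 1 was highest, and the other DEX arrays lay within the Control range. The mean was 1.75 ± 0.28 in the DEX group and 1.56 ± 0.15 in the Control group (SD, n = 5 each), a difference of 0.19 that became 0.07 without DEX 1 and −0.40 with normexp. Because the 2 probes can differ in strength, the ratio itself is not a ratio of molecules. No ratio of a 5p to a 3p arm, or of miR-196a-5p to miR-196b-5p, was formed, since 1 of each pair was undetected on nearly every array.

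Across the 10 arrays the 2 miR-10 5p arms went up and down together, with a Pearson correlation of 0.78 of their log2 signals. Control 3, Control 4 and DEX 3 were the 3 lowest arrays for both. The same arrays were lowest for miR-99a-5p and miR-100-5p as well, so this pattern was not particular to the miR-10 arms. Each of these arms correlated more closely with other miRNAs, given below, than with the other arm. miR-196b-3p did not follow them, with correlations of 0.18 to miR-10a-5p and 0.09 to miR-10b-5p. Among 404 other miRNAs detected on all 10 arrays, those most like miR-10a-5p were miR-99a-5p (0.96), miR-126a-3p (0.95) and miR-30c-5p (0.94). Those most like miR-10b-5p were miR-181a-5p (0.93), miR-3068-3p (0.92) and miR-23b-3p (0.92). Those most like miR-196b-3p were miR-187-3p (0.87), miR-362-3p (0.85) and miR-770-3p (0.80). These correlations are descriptions over 10 arrays, which share slides, one scaling factor per array and a group difference. miR-126a-3p is a marker of endothelium and miR-99a-5p a sequence relative of miR-10a-5p, and the part that cell content, scaling or array brightness has in the likeness was not tested.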

How the data were processed

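Left ventricular RNA of 10 male Wistar rats (5 Control, 5 DEX) carried a Cy5 label and was run on 10 one-colour rat miRNA chips. The labels name an RNeasy mini kit and the study's methods an miRNeasy mini kit for the extraction. Groups and replicate numbers came from the sample titles, and the study's methods take each RNA from a separate rat heart. Per the file headers, the deposited scanner files hold the median spot intensity and the median background intensity on a linear scale, with no background removed. The value table deposited by the authors holds a rounded score per miRNA and array. Set against the scanner intensities, 99.98% of 5038 values came out within 0.51 of the blank-subtracted intensity times one factor per array (linear, not centred), and 2 of 7610 detection calls differed. In that table the median is 25 over the 405 miRNAs that never lack a value. It had 0 unused columns. The versions of the scanner and extraction software and the miRBase release are not given in the sources used here.

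The mean of the 1664 blank spots (5% trimmed at each end) was subtracted, each array was scaled to a median of 25 over its own detected miRNAs, undetected spots were set to the array's lowest detected signal, spots marked bad were left missing, and log2 was taken. A miRNA entered the tests when 5 or more arrays detected it (503 of 761). The test was limma (version 3.58.1, R version 4.3.3; linear model with moderated variances, two-sided, Benjamini-Hochberg over all 503, threshold 0.05), beside the methods' t-test and, for single members, exact permutation tests. The code was tested on simulated data. Alternatives covered the background, scaling, filter, floor, model, slide, replicate block and each array left out. Named miRNAs were all 7 members, the 3 most correlated miRNAs per detected member, the other Hox cluster miRNAs, the miR-99, miR-100 and miR-125 relatives, miRNAs with a member's seed, and the tissue marker lists. The members and lists were chosen with earlier results of these data known. Sequences and coordinates are from RefSeq (GRCr8), where 685 of the 761 names had a match. The number of arrays limits the precision. The plots used matplotlib (version 3.10.9) under Python (version 3.11.15).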

Additional observations from a re-analysis of the deposited data

How the results depend on the processing

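No miRNA passed the adjusted threshold in any of 28 alternatives, and neither did a member. The lowest adjusted p over all tested miRNAs ran from 0.0608 to 0.997, with 7 to 36 miRNAs at an unadjusted p under 0.05. miR-196b-3p was below 0 in 29 of 29 alternatives (−0.74 to −0.070), with an unadjusted p under 0.05 in 22 of the 28 that have a p and a lowest adjusted p of 0.458. These alternatives are not independent checks. The miRNA was detected on every array, so the filter and floor settings could not move its main difference of −0.53. Neither could the trend and robust setting, the t-test or the replicate block. The fixed slide term repeats the value within slide 2, and fits without 1 array reuse the others. Leaving out one array at a time gave −0.66 to −0.39 for miR-196b-3p, 0.056 to 0.33 for miR-10a-5p and −0.10 to 0.11 for miR-10b-5p. The count of calls was 0 in each of these, over all miRNAs and over the members.

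The sign of miR-10a-5p turned with normexp (−0.48), with no scaling (−0.0041), and with slide as a fixed term or within slide 2 (−0.11 in both). The sign of miR-10b-5p turned with no background correction (−0.014), normexp (−0.080), the 75th percentile scaling (−0.083), no scaling (−0.19), array weights (−0.030), without slide 3 (−0.0070), and with slide as a fixed term or within slide 2 (−0.39 in both). It also turned without Control 3 (−0.10), Control 4 (−0.049), DEX 1 (−0.014), DEX 2 (−0.017) or DEX 5 (−0.024). The median over all tested miRNAs moved from 0.04 to −0.16 with no scaling and to −0.19 with slide as a fixed term. The ratio of miR-10a-5p to miR-10b-5p, DEX minus Control, turned to −0.40 with normexp. The detection count of miR-10a-3p and of miR-196b-5p went from 1 to 0 at 3 SD. The cause of these changes was not tested.

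With the replicate number as a replicate block the differences were 0.20 for miR-10a-5p, 0.01 for miR-10b-5p and −0.53 for miR-196b-3p (adjusted p = 0.673 by limma), with 0 calls and 35 miRNAs at an unadjusted p under 0.05. Each number holds 1 Control and 1 DEX array, so the block could change the errors and p-values but not these differences. Correlations of same-numbered arrays lay between −0.08 and 0.11, and 1 of 10 arrays correlated best with its own number, so no pairing by number was seen. Same-numbered arrays sat on different slides, so these values cannot decide whether the hearts were paired. Brightness over the blanks limits the 4 undetected miRNAs: no level or change could be measured for them.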
